A study of Mus musculus with 6 samples.

Results

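The leukocyte and mucosal homing integrins described here are 10 genes: the integrin chains *Itgal*, *Itgam*, *Itgax*, *Itgb2*, *Itga4*, *Itgae* and *Itgb7*, the ligand genes *Icam1* and *Vcam1*, and the hyaluronan receptor gene *Cd44*. The rule lists them by name and uses no measured value, and every probe set annotated to a member and to no other gene was taken. This gave 21 of the 45037 probe sets tested, and 10 of the 18194 genes measured by a probe set of their own. All 10 members were thus measured and no filter on low values removed any of them. RNA came from cytotoxic T cells (CTL) made from spleens of C57BL/6 mice, 8 to 12 weeks old, that carried the P14 transgenic T cell receptor, which recognises a peptide of the virus LCMV. Cells of both groups received the peptide for 48 hours, were transduced with retrovirus 18 hours after its addition, were cultured for a further 48 hours in the T cell growth factor IL-2 and were purified by FACS on day 4. The evGFP group (3 arrays) received a vector with green fluorescent protein alone. The GFP-KLF2 group (3 arrays) received GFP fused to KLF2, a zinc finger transcription factor that naïve T cells express and that activated T cells lose.

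The comparison asked how expression of these genes differed between CTL in which KLF2 was kept on and control CTL. The retroviral vector, not the *Klf2* locus, drives the fusion protein. The array reads a part of the *Klf2* mRNA that the construct lacks, so *Klf2* itself gives no check of the labels. The 9 measured markers listed for CD8 T cells, most of them shared by all T cells, had mean log2 intensities of 10.2 to 13.7. The CD8 chains *Cd8a* and *Cd8b1* were at 12.1 and 13.1 over all arrays. Of the 9, 1 rose, *Cd8b1* (log2 difference 0.45, adjusted p = 0.0107). With the replicate number as a block *Cd247* rose too (0.39, adjusted p = 0.0481 without and 0.0189 with the block). Pearson's correlation across all probe sets was 0.993 to 0.996 between arrays of one group and 0.982 to 0.990 between groups. Control probe sets for the 3′ and 5′ ends of *Actb*, a sign of RNA integrity, differed by 0.111 to 0.121 log2 units in evGFP and 0.077 to 0.084 in GFP-KLF2 arrays, so these small values separated the groups, whereas the same difference for *Gapdh* overlapped, at -0.179 to -0.116 and -0.169 to -0.139. Their part in the results was not tested. The labels call the replicates biological but do not name separate mice or cultures, so p-values measure the spread between these arrays.

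Integrins are receptors made of one alpha and one beta chain, and neither chain normally reaches the cell surface without its partner. The beta chain of *Itgb2* (CD18) pairs with *Itgal* (CD11a, forming LFA-1), *Itgam* (CD11b, Mac-1) or *Itgax* (CD11c), and LFA-1 binds ICAM-1 when T cells adhere to endothelium or to target cells. The chain of *Itgb7* pairs with *Itga4* to form the gut homing receptor for MAdCAM-1, or with *Itgae* (CD103) to form a receptor for E-cadherin that holds T cells in epithelium. *Itga4* also pairs with *Itgb1*, and that receptor binds VCAM-1 and fibronectin.

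Of the 10 genes, 5 rose in GFP-KLF2 CTL, 0 fell and 5 did not pass the test (limma, Benjamini-Hochberg adjusted p under 0.046 over all probe sets, each gene by its brightest probe set). The risen genes were *Itgax*, *Itga4*, *Itgb2*, *Itgb7* and *Cd44*. Among all genes, 6.22% rose and 8.35% fell by the same test. At an unadjusted p under 0.05, 5 members were higher and 2 lower, beside 2190 and 3219 of the 18194 genes. With the replicate number as a block, since arrays with the same number deviated alike, 5 members rose and 1 fell, beside 8.58% and 12.1% of all genes, and the member that then fell was *Itgae*. All 3 GFP-KLF2 arrays lay above all 3 evGFP arrays for 6 members and below them for 2, beside 14.3% and 20.6% of all genes. The median log2 difference was 0.53 for the members and -0.01 for all genes. Of the 10 members, 2 (*Itgax* and *Itga4*) passed the test with a rise of at least 2-fold, beside 405 of the 18194 genes. RNA of a whole sorted population cannot tell more cells that express a gene from more of its RNA per cell.

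**Figure D1:**
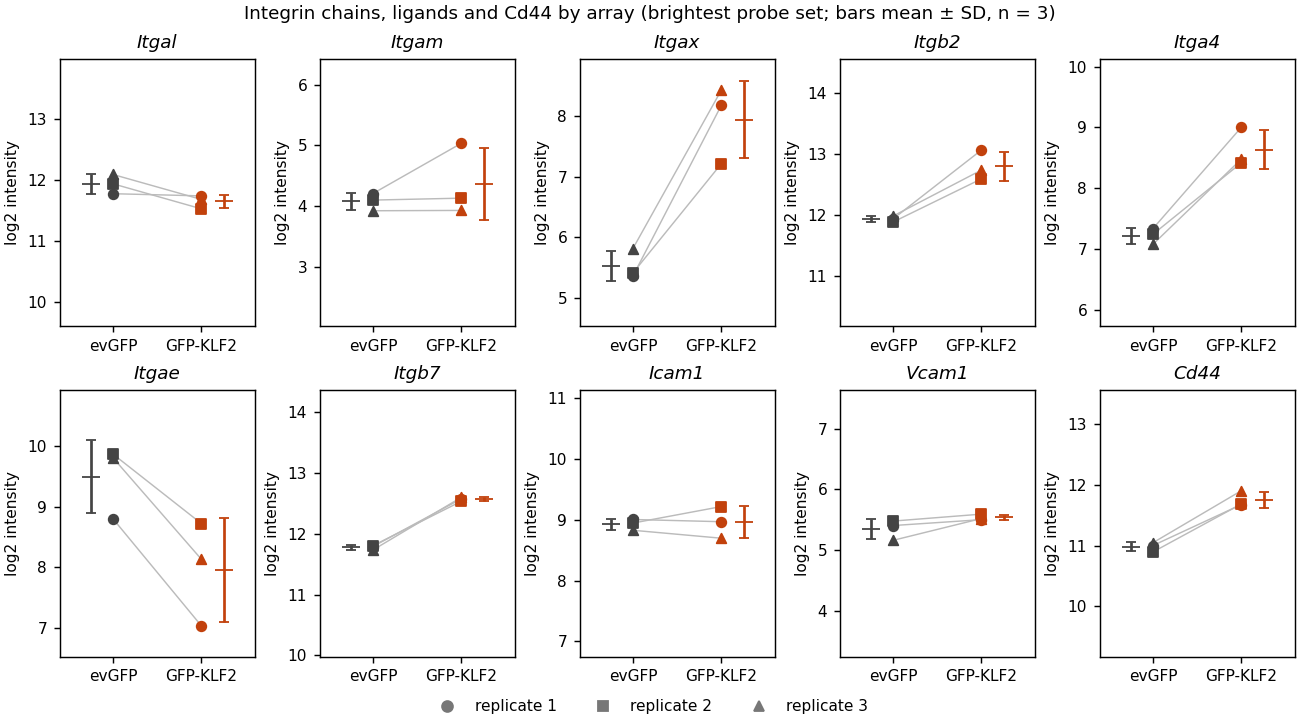
Log2 intensity of the brightest probe set of each of the 10 members in each of the 3 evGFP and 3 GFP-KLF2 arrays, with mean ± SD at the side and lines that join arrays of the same replicate number. The groups do not overlap for *Itgax*, *Itgb2*, *Itga4*, *Itgb7*, *Cd44*, *Itgae*, *Itgal* and *Vcam1*, and only the first 5 of these passed the test.

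Factors of the KLF family bind CACCC and related GC-rich elements, and promoter sequence is shown for those risen members that had a RefSeq entry. Promoters of 6 members were in the RefSeq table used (build GRCm38.p6). *Itgal*, *Itgb2*, *Itgae* and *Vcam1* had no entry. The table gives 1 start for each of these genes, which need not be its outermost one: the start used lies 24 bases inside the annotated span of *Itgax*, 4 bases inside that of *Cd44* and 1470 bases inside that of *Itgb7*, whose sequence is therefore not shown. For the others, the 120 bases just outside the gene's span are written 5′ to 3′ on the strand of the gene, and capitals mark each CACCC or its reverse complement GGGTG.
Itga4, chr2:79255306-79255425, plus strand: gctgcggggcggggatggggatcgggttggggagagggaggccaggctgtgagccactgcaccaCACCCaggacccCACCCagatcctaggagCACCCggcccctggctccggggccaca
Itgax, chr7:128129406-128129525, plus strand: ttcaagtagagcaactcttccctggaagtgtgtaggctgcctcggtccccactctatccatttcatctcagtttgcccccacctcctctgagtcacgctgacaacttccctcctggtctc
Cd44, chr2:102901670-102901789, minus strand: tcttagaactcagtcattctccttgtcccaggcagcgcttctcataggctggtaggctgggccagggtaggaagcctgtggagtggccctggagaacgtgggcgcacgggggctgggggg
In the 250 bases before the start used, searched on both strands for these letters, *Itga4* held 4 matches, *Itgb7* 4, *Itgam* 3 and *Icam1* 2, while *Itgax* and *Cd44* held 0. A match in 250 bases was found in 52.0% of 32851 promoters, and at least 3 matches in 6.92%. Of the 4 risen members with an entry, 2 thus held the motif (*Itga4* and *Itgb7*) and 2 did not. For *Itgb7* all 250 bases searched lie inside the annotated span of the gene. *Itgam* and *Icam1*, which did not pass the expression test, held the motif too. These matches describe letters only and say nothing of binding.

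Among the beta 2 integrins, the strongest difference was in *Itgax* (Entrez 16411), which encodes CD11c, best known from dendritic cells but also present on activated CD8 T cells. Its log2 intensity was 5.36, 5.41 and 5.81 in the 3 evGFP arrays and 8.18, 7.21 and 8.43 in the 3 GFP-KLF2 arrays. All GFP-KLF2 arrays lay more than 1 log2 unit above every control, although the second was clearly below the other two. *Itgax* rose 5.32-fold (95% confidence interval 3.29 to 8.59), a log2 difference of 2.41 ± 0.30 (SE, adjusted p = 0.0038). This was the largest difference of the 10 members.

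Because CD11c also marks dendritic cells, markers of dendritic cells and macrophages were read beside it. Of 19 measured, 1 rose, 1 fell and 17 did not pass, with 13 differences above 0, a median of 0.12, and 2 higher and 1 lower at an unadjusted p under 0.05. *Tyrobp*, an adaptor of activating receptors in myeloid and NK cells, rose from 5.23 to 6.71 (log2 difference 1.48, adjusted p = 0.0023), whereas *Ctss*, a lysosomal protease, was lower by a log2 difference of -0.43 (adjusted p = 0.0208), a call lost when any 1 array was left out (0.0513 to 0.0600). *Cd68*, a lysosomal protein of macrophages, lay higher in all 3 GFP-KLF2 arrays (6.35 to 6.78 in the means, adjusted p = 0.0490) and rose with the replicate block (adjusted p = 0.0252), which gave 2 rises and 1 fall.

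The mean log2 intensity over all arrays was 4.06 to 10.7 across the 19 markers. It was 5.32 in evGFP and 5.31 in GFP-KLF2 for *Lyz2*, 4.37 and 4.42 for *Cd14*, 5.22 and 5.19 for *Zbtb46*, 7.52 and 7.67 for *H2-Ab1*, and 8.19 and 7.78 for *Fcer1g*. *Csf1r*, at 6.87 in evGFP, differed by 0.13, and *Cd74*, at 7.19 in GFP-KLF2, by -0.21. The groups overlapped for each of these 7 genes, and no marker was under the lower quartile in all arrays. The markers not named so far overlapped too and did not pass. Their log2 differences were 0.20 for *Adgre1*, 0.19 for *H2-Aa*, 0.16 for *Ciita*, 0.16 for *Mpeg1*, 0.15 for *Flt3* and 0.12 for *Xcr1*. For *Siglech*, *H2-Eb1* and *Fcgr3* they were 0.01, 0.003 and -0.28. The summed intensity of the list was 11.69 to 11.90 in evGFP and 11.53 to 11.56 in GFP-KLF2 arrays (log2), but without *Ctss*, which carries much of the sum, it was 10.44 to 10.74 and 10.47 to 10.66, with overlap. The part of such cells in the *Itgax* difference was not tested. None of 9 granulocyte, 6 NK cell or 7 B cell markers passed the test in limma, and at an unadjusted p under 0.05 the counts were 0, 0 and 2. Of 6 CD4 T cell markers, 1 rose (*Zbtb7b*, log2 difference 0.45, adjusted p = 0.0429, up to 0.128 with 1 array left out).

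*Itgb2* (Entrez 16414), the beta chain shared by CD11a, CD11b and CD11c, was at 11.93, 11.88 and 11.98 in evGFP arrays and at 13.07, 12.59 and 12.74 in GFP-KLF2 arrays. The 3 controls lay close together and below every GFP-KLF2 array. *Itgb2* rose 1.83-fold (95% confidence interval 1.49 to 2.23), a log2 difference of 0.87 ± 0.12 (SE, adjusted p = 0.0063).

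*Itgal* (Entrez 16408), the alpha chain of LFA-1, did not rise with its partner. Its brightest probe set was at 11.78, 11.94 and 12.09 in evGFP and at 11.74, 11.53 and 11.68 in GFP-KLF2 arrays, so all GFP-KLF2 arrays were lower, the first of them only slightly. The log2 difference of -0.29 (95% confidence interval -0.53 to -0.04) missed the threshold (adjusted p = 0.138). Its second probe set, at 8.89, 9.02 and 9.48 against 8.64, 8.40 and 8.73, gave -0.54 (adjusted p = 0.0797, and 0.0228 with the replicate block).

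*Itgam* (Entrez 16409), the alpha chain of Mac-1, was close to the lower end of the arrays, at 4.21, 4.10 and 3.92 in evGFP and 5.04, 4.13 and 3.93 in GFP-KLF2. In 5 of the 6 arrays it lay under the lower quartile of all probe sets, which was 4.18 to 4.25. The groups overlapped and 1 array, the first GFP-KLF2 array, stood above the rest. The log2 difference was 0.29 (95% confidence interval -0.33 to 0.91, adjusted p = 0.590), and -0.047 without that array. *Itgam* and *Itgax* are neighbours on the same chromosome, with 0 protein-coding genes between them in RefSeq.

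Both chains of the gut homing receptor were higher. *Itga4* (Entrez 16401) was at 7.33, 7.24 and 7.07 in evGFP arrays. In GFP-KLF2 arrays its mean was 8.63 ± 0.32 (SD, n = 3), with 8.42 in the second array, 8.48 in the third and a higher value in the first, so the groups were well apart. It rose 2.67-fold (95% confidence interval 2.06 to 3.47), a log2 difference of 1.42 ± 0.16 (SE, adjusted p = 0.0029).

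The 5 *Itga4* probe sets differed in size of response: 3 rose, by log2 differences of 1.42, 1.63 (adjusted p = 0.0012) and 0.74 (adjusted p = 0.0308), and 2 did not pass. The call at 0.74 was lost when any array but the third evGFP array was left out, with an adjusted p of up to 0.0920. Of the remaining pair, one gave 0.54 (adjusted p = 0.102, and 0.0332 with the replicate block) and the other 0.01, at a mean log2 intensity of 3.22 in evGFP and under the lower quartile in all 6 arrays. The mean of all 5 probe sets gave a log2 difference of 0.87, which still passed.

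*Itgb7* (Entrez 16421), the beta chain of both mucosal receptors, varied little between replicates, at 11.79, 11.80 and 11.73 in evGFP and 12.58, 12.54 and 12.60 in GFP-KLF2 arrays. No value came near the other group. *Itgb7* rose 1.74-fold (95% confidence interval 1.55 to 1.95), a log2 difference of 0.80 ± 0.07 (SE, adjusted p = 0.0013).

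*Itgae* (Entrez 16407), the alpha chain that shares *Itgb7* with *Itga4*, was lower in GFP-KLF2 CTL. Its brightest probe set was at 8.80, 9.87 and 9.81 in evGFP and at 7.04, 8.72 and 8.13 in GFP-KLF2 arrays. The groups did not overlap, but in both groups the first array was far below the others, so the spread within groups (SD 0.60 and 0.85, n = 3 each) was wide. The log2 difference was -1.53 ± 0.44 (SE), a level 0.347 times that of the control (95% confidence interval 0.169 to 0.711), and missed the threshold (adjusted p = 0.0694). Within pairs of arrays that share a replicate number the difference was -1.77, -1.15 and -1.67, and with the replicate block the SE was 0.13 and *Itgae* fell (adjusted p = 0.0017).

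The second *Itgae* probe set showed the same order of arrays, at 8.41, 9.33 and 9.26 against 6.67, 8.32 and 7.77, with a log2 difference of -1.41 (adjusted p = 0.0744, and 0.0025 with the replicate block). Both probe sets read one gene in the same arrays and are not separate replicates.

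*Cd44* (Entrez 12505), a receptor for hyaluronan that activated and memory T cells carry, was at 10.89 to 11.05 in the 3 evGFP arrays and at 11.68, 11.69 and 11.90 in GFP-KLF2 arrays, without overlap. It rose 1.71-fold (95% confidence interval 1.47 to 1.99), a log2 difference of 0.78 ± 0.09 (SE, adjusted p = 0.0033). Of its other probe sets, 2 rose by 0.83 (adjusted p = 0.0081) and 0.77 (adjusted p = 0.0131). The last of these calls was lost without the first or the second evGFP array, with an adjusted p of up to 0.0549. The fourth probe set, at 3.39 in evGFP and under the lower quartile in all 6 arrays, gave 0.02 (adjusted p = 0.887).

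The ligand genes did not pass the test. *Icam1* (Entrez 15894), the ligand of LFA-1, which T cells also express, was at 9.01, 8.95 and 8.83 in evGFP and 8.97, 9.22 and 8.70 in GFP-KLF2 arrays, and the groups overlapped. Its fold was 1.02 (95% confidence interval 0.825 to 1.27, adjusted p = 0.918). *Vcam1* (Entrez 22329), the endothelial and stromal ligand of the *Itga4* and *Itgb1* receptor, was at 5.40, 5.48 and 5.16 against 5.50, 5.59 and 5.52, with a log2 difference of 0.19 (95% confidence interval -0.04 to 0.42, adjusted p = 0.299). It was 0.097 without the third evGFP array and 0.066 with the mean of its probe sets. Its other probe sets gave 0.11 (adjusted p = 0.490) and -0.10 (adjusted p = 0.641), the latter under the lower quartile in all 6 arrays. None of 10 endothelial and stromal markers passed the test in limma, 0 at an unadjusted p under 0.05, and their summed intensity was 8.63 to 8.88 in evGFP and 8.69 to 8.90 in GFP-KLF2 arrays (log2).

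Over all 21 member probe sets, 9 rose, 0 fell and 12 did not pass, beside 4.76% of all probe sets that rose and 6.39% that fell. At an unadjusted p under 0.05 in limma, 10 were higher and 4 lower, beside 4590 and 6558 of the 45037 probe sets. With the replicate block 10 rose and 3 fell, beside 6.73% and 9.53% of all probe sets. The 3 that then fell were both *Itgae* probe sets and the second *Itgal* probe set, and the 1 added to the rise was an *Itga4* probe set.

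**Figure D2:**
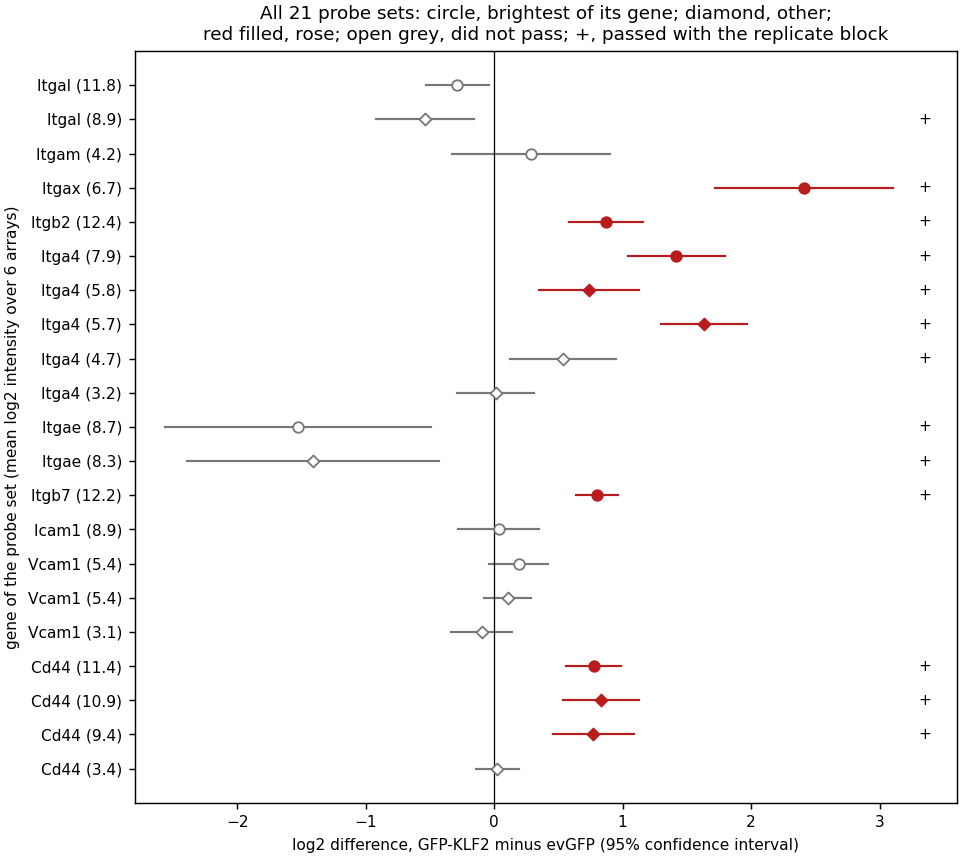
Log2 difference (GFP-KLF2 minus evGFP) with its 95% confidence interval for all 21 member probe sets, by gene, with circles for the brightest probe set, diamonds for the others, filled symbols for those that rose and a plus where the blocked fit passed. The 9 that rose belong to *Itgax*, *Itgb2*, *Itga4*, *Itgb7* and *Cd44*, and those under the lower quartile of the arrays lie close to 0.

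Since alpha and beta chains pair, the log2 difference between partners was taken in each array, and that between the alpha chains *Itgae* and *Itga4*. Groups were compared by an exact 2-sided permutation test. Levels of different probe sets cannot be set against each other, so only the shift between groups is given, and it shows unequal change, not which chain moved. With 3 arrays a group the smallest possible p is 0.1, and over the 7 pairs compared the smallest adjusted p was 0.117, so no shift could pass.

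The shift of *Itgal* against *Itgb2* was -1.16, and it hardly varied between replicate pairs (-1.17, -1.13 and -1.17; exact p = 0.1). *Itgax* shifted the other way against the same beta chain, by 1.54 (1.68, 1.09 and 1.85; exact p = 0.1). For *Itgam* the groups overlapped (shift -0.58, exact p = 0.2). *Itgal* and *Itgax* thus moved apart relative to *Itgb2* in 3 of 3 pairs.

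For the mucosal receptors, the shift of *Itga4* against *Itgb7* was 0.62 (0.88, 0.45 and 0.54; exact p = 0.1), but only 0.071 when all probe sets of each chain were averaged. *Itgae* shifted by -2.33 against *Itgb7* (-2.55, -1.88 and -2.54; exact p = 0.1). Between the alpha chains, *Itgae* against *Itga4* shifted by -2.95 (-3.44, -2.32 and -3.08; exact p = 0.1), the largest of the 7 shifts. *Itga4* against its other partner *Itgb1* shifted by 0.83 (1.41, 0.43 and 0.64; exact p = 0.1), and by 0.45 without the first GFP-KLF2 array and 0.54 with the mean of all probe sets. The groups did not overlap in any of these 4 pairs of chains.

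**Figure D3:**
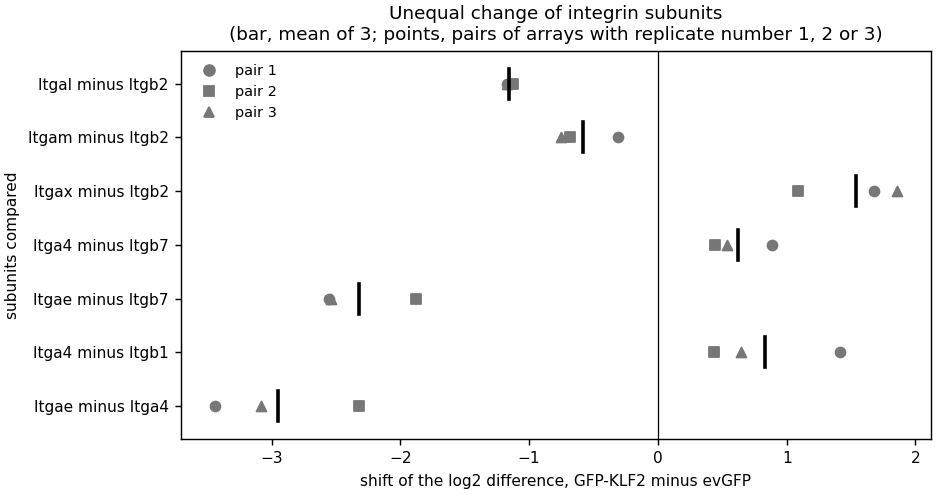
Log2 difference between chains in GFP-KLF2 minus that in the evGFP array of the same replicate number, for the 7 pairs of chains. Each has 1 point per replicate pair and a bar at the mean shift. *Itgae* and *Itga4* are both alpha chains, while the other pairs are partners. *Itgax* lies above 0 and *Itgal* below 0 against the shared partner *Itgb2*, and *Itgae* lies below 0 against *Itgb7* in 3 of 3 replicate pairs.

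The size of the difference varied between replicate pairs. The second of the 3 pairs had the smallest absolute difference for *Itgax*, *Itgb2*, *Itga4*, *Itgae* and *Itgb7*, the first for *Cd44*, *Itgal*, *Icam1* and *Vcam1*, and the third for *Itgam*. The paired differences were 2.82, 1.80 and 2.61 for *Itgax*, 1.14, 0.71 and 0.76 for *Itgb2*, and 1.67, 1.18 and 1.41 for *Itga4*. For *Itgb7* they were nearly equal, at 0.79, 0.73 and 0.87, and for *Cd44* they were 0.68, 0.79 and 0.86.

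The counts of the gene lists below stand beside 6.22% of all genes that rose and 8.35% that fell. With the replicate block these shares were 8.58% and 12.1%. Of the 16 other integrin subunits measured, 1 rose, 0 fell and 15 did not pass, with a median log2 difference of 0.02 (limma). At an unadjusted p under 0.05, 3 were higher and 0 lower, beside 2190 and 3219 of all 18194 genes. *Itgb3*, the beta chain of the vitronectin receptor, was the subunit that rose, from 7.42, 8.64 and 8.94 to 10.10, 10.42 and 10.66, a log2 difference of 2.06 ± 0.36 (SE, adjusted p = 0.0133). The call was lost without the second GFP-KLF2 array (adjusted p = 0.0471). The second *Itgb3* probe set rose by less, at 0.44 (adjusted p = 0.0377). *Itgb1* was at 9.93, 9.96 and 10.10 in evGFP and at 10.19, 10.70 and 10.86 in GFP-KLF2 arrays, with no overlap, and its log2 difference of 0.59 did not pass (adjusted p = 0.0636, and 0.0208 with the block). Its 6 probe sets ranged from -0.05 to 0.59 and 1 of them rose. That probe set was of the cross-hybridising type and dim, at mean log2 intensities of 3.72 in evGFP and 4.17 in GFP-KLF2 arrays. The lower quartile of the arrays was 4.18 to 4.25.

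Of 13 other ligands, 0 rose, 2 fell and 11 did not pass, with a median of -0.02, and at an unadjusted p under 0.05 in limma 2 were higher and 2 lower. With the replicate block 1 rose and 3 fell. *Icam2*, another ligand of LFA-1, fell by 0.76 on the log2 scale (adjusted p = 0.0153), and *Emilin1*, a matrix glycoprotein bound by the *Itga4* and *Itgb1* receptor, by a log2 difference of -0.91 (adjusted p = 0.0370). The *Icam2* call was lost without the second evGFP or the second GFP-KLF2 array (adjusted p up to 0.0561). The *Emilin1* call was lost without any array but the third GFP-KLF2 array (up to 0.0888). A second *Emilin1* probe set gave -0.54 and did not pass (adjusted p = 0.0680, and 0.0212 with the block). *Cdh1*, which encodes E-cadherin, the ligand of the *Itgae* receptor, was at 4.80, 7.13 and 7.66 in evGFP and at 7.45, 8.90 and 8.83 in GFP-KLF2 arrays, so the groups overlapped (log2 difference 1.86, adjusted p = 0.164). With the replicate block it rose (adjusted p = 0.0063), and the first array of either group was again the lowest. *Icam4*, the other ligand that then fell, overlapped between groups (-0.33, adjusted p = 0.279, and 0.0318 with the block).

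Of 18 genes that switch integrins on from inside the cell, 3 rose, 0 fell and 15 did not pass, beside 15544 of all 18194 genes that did not pass. The median was 0.03 (5 higher and 0 lower at an unadjusted p under 0.05 in limma). *Cyth1*, which binds the tail of the *Itgb2* chain, rose by a log2 difference of 0.60 ± 0.08 (SE, adjusted p = 0.0047). *Rasgrp2*, an exchange factor for Rap1, rose by 0.70 (adjusted p = 0.0411) and *Rap1b* itself by 0.34 (adjusted p = 0.0439). Both of these lay near the threshold and lost the call when any of 5 of the 6 arrays was left out (adjusted p up to 0.125 and 0.131), the exceptions being the first evGFP array for *Rasgrp2* and the third for *Rap1b*. For *Rasgrp2*, 2 of 4 probe sets rose. For the brightest *Rap1b* probe set the call was also lost with the replicate block (adjusted p = 0.0462). All 3 *Rap1b* probe sets passed in the unblocked fit. The others, at 0.51 and 0.52, also passed with the block (adjusted p = 0.0116 and 0.0165). The block gave 4 rises, with *Apbb1ip* (0.37, adjusted p = 0.0603 without and 0.0210 with it) and *Fyb* (0.47, adjusted p = 0.140 and 0.0219) added.

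Of 12 genes listed under restraint of integrin activation, 3 rose, 1 fell and 8 did not pass, with a median of 0.12. At an unadjusted p under 0.05 in limma, 3 were higher and 3 lower. The list is broad, and an action on integrins was not examined for *Arap2* or *Cd5*. *Rasa3*, a GTPase-activating protein for Rap1 and Ras, was at 9.89, 10.01 and 9.90 in evGFP and at 11.91, 11.88 and 11.98 in GFP-KLF2 arrays, and its groups were far apart for their spread. Its log2 difference was 1.99 ± 0.08 (SE, adjusted p = 4.2e-05). *Arap2*, a GTPase-activating protein for Arf proteins, rose by 1.51 ± 0.18 (SE, adjusted p = 0.0032), and all 3 of its probe sets rose. *Sipa1l1*, which acts on Rap proteins, fell by 0.56 on the log2 scale (adjusted p = 0.0116), a call lost without the second evGFP array (0.0470). Of its 4 probe sets 2 fell, and the others gave -0.07 and -0.06. *Cd5*, an inhibitory T cell receptor, lay lower in all GFP-KLF2 arrays, and its log2 difference of -1.12 missed the threshold (adjusted p = 0.0493). With the replicate block it passed (0.0092), so that 2 of the 12 fell.

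Of 18 signals and adaptors downstream of integrins, 5 rose, 0 fell and 13 did not pass, with a median of 0.12 (7 higher and 1 lower at an unadjusted p under 0.05 in limma, and 6 risen and 1 fallen with the replicate block). *Vcl* (vinculin), which links integrins to actin, was at 7.46, 7.73 and 7.62 in evGFP and 9.44, 9.13 and 9.19 in GFP-KLF2 arrays, without overlap (log2 difference 1.65 ± 0.11 SE, adjusted p = 0.00055). Its second probe set gave 0.08 and did not pass. The adhesion protein *Zyx* (zyxin) rose by 1.18 ± 0.17 (SE, adjusted p = 0.0070), and the kinase *Syk* rose by 1.07 ± 0.18 (SE, adjusted p = 0.0103). For *Syk* 2 of 4 and for *Zyx* 1 of 2 probe sets rose. The block added *Fgr* (0.38, adjusted p = 0.0735 without and 0.0248 with it) to the rises and *Parvg* (-0.39, adjusted p = 0.0470 and 0.0264) as a fall.

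Of 14 partners, ligands and hyaluronan enzymes around CD44, 1 rose, 0 fell and 13 did not pass, with a median of -0.09 (2 higher and 2 lower at an unadjusted p under 0.05 in limma). *Msn* (moesin), which ties the CD44 tail to actin, rose by 0.38 ± 0.07 (SE, adjusted p = 0.0149), a call lost on leaving out the first or second array of either group (adjusted p up to 0.0548). In the blocked fit 2 of these genes rose and 1 fell, the added ones being *Ezr* (0.32, adjusted p = 0.0754 without and 0.0307 with it) and *Nf2* (-0.45, adjusted p = 0.0642 and 0.0156).

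TGF-beta is known to induce *Itgae*, and T-bet is known to repress it, so genes of this pathway were read beside *Itgae*. Of 15 measured, 4 rose, 1 fell and 10 did not pass, with a median of 0.25 (6 higher and 1 lower at an unadjusted p under 0.05, and 5 risen and 1 fallen with the replicate block). *Tbx21* (T-bet) was at 9.60, 9.69 and 9.98 in evGFP and at 11.58, 11.09 and 10.83 in GFP-KLF2 arrays, and the groups were apart. It rose by a log2 difference of 1.41 ± 0.19 (SE, adjusted p = 0.0055).

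*Smad7*, an inhibitor of TGF-beta receptor signals, rose from 8.37, 8.58 and 8.60 to 9.35, 9.52 and 9.58, by 0.97 ± 0.10 (SE, adjusted p = 0.0021). *Tgfbr3*, a TGF-beta co-receptor, was at 9.88, 9.66 and 9.72 in evGFP and 8.97, 8.79 and 8.97 in GFP-KLF2 arrays. It fell by 0.84 on the log2 scale (adjusted p = 0.0027), though its second probe set, at -0.18, did not pass. *Runx3*, a factor known to activate *Itgae*, rose by 0.45 ± 0.09 (SE, adjusted p = 0.0225), a call lost without any array but the third evGFP array (adjusted p up to 0.0770). *Ski*, a repressor of SMAD signals, rose by 0.48 (adjusted p = 0.0458), a call lost without any array but the first GFP-KLF2 array (up to 0.149). *Smad3*, which carries TGF-beta signals, lay higher in all GFP-KLF2 arrays, by 0.65 (adjusted p = 0.0648), and rose with the block (0.0050). Whether any of these differences bears on *Itgae* was not tested.

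**Figure D4:**
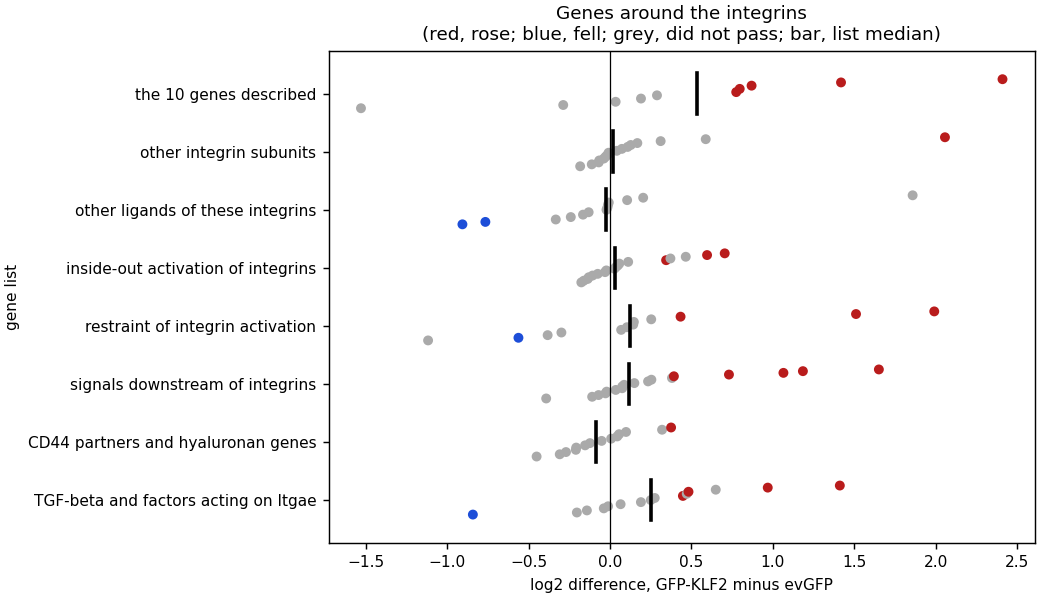
Log2 difference (GFP-KLF2 minus evGFP) of every measured gene in the 7 pathway lists and of the 10 members, by brightest probe set, with a bar at the list median; red points rose, blue points fell and grey points did not pass. The members spread from -1.53 to 2.41, and the median of each other list lies between -0.09 and 0.25.

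The genes whose values were most like those of 3 members were found over the 6 arrays among 18184 genes, by the root mean square difference after the evGFP mean of each gene was subtracted. For *Itgax* they were *Nhsl2* (0.216 log2 units), *Errfi1*, a feedback inhibitor of the EGF receptor (0.238), and *Nrbp2* (0.287). For *Itga4* they were the transcript *D930028M14Rik* (0.133), the cytokine gene *Osm* (0.137) and the sphingosine phosphate receptor gene *S1pr4* (0.138). For *Itgae* the likeness was looser, with *Tnfrsf21*, a death receptor (0.484), *Gdpd5* (0.503) and *Enah*, an actin regulator (0.505). The log2 differences of the first 6 genes were 1.30 to 2.22 and those of the last 3 were -1.04, -1.14 and -1.73, which follows from the rule that picked them.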

How the data were processed

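RNA of FACS-purified evGFP and GFP-KLF2 CTL (3 arrays each, 250 ng total RNA per labelling) was hybridised to Affymetrix mouse expression arrays. The authors computed the deposited intensity values by RMA, which corrects background, normalises arrays by quantiles and summarises probe sets. Their own test was made in limma. Versions of both are not given in the sources used here. The values, from 5.74 to 33637.8, were linear and were converted to log2 here. Of 45101 probe sets, 64 controls were left out. Of the 45037 tested, 34945 were annotated to 1 gene, 932 to several and 9160 to none, and of the first 34741 matched a RefSeq gene.

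In R 4.3.3, limma 3.58.1 (tables read with data.table, version 1.17.8) was fitted with a constant per group and moderated variances, 2-sided, with Benjamini-Hochberg adjustment over all probe sets. The methods print a threshold of 0.046%; an adjusted p under 0.046 was used, and 0.00046 became an alternative. Where a gene had several probe sets, the brightest over the 6 arrays stands for it. Named were all members with every probe set, up to 3 called genes of each pathway list with the largest differences, *Itgb1*, and the 3 genes most like *Itgax*, *Itga4* and *Itgae*. *Runx3*, *Ski*, the markers other than their counts, and list genes whose call the block changed were named after their values were seen. The members, lists, rules and tests were chosen with earlier results of these data known, so their directions are not independent evidence.

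The replicate numbers of the labels were checked for pairing: after subtraction of each group's mean, the correlation was 0.33, 0.44 and 0.47 between arrays of the same number and at -0.38 to 0.06 between others. The numbers were therefore taken to pair the arrays, and the value of a fit with the number as a block stands beside results and named genes whose call it changes. Other alternatives were median centring, quantile and cyclic loess normalisation, an intensity trend with robust prior, array weights, removal of dim (mean log2 under 6) or cross-hybridising probe sets, a threshold of 0.05, the mean of all probe sets, and each array left out. The fit was tested on simulated data. The number of arrays limits the precision.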

Additional observations from a re-analysis of the deposited data

How the results depend on the processing

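*Itgax*, *Itgb2*, *Itga4*, *Itgb7* and *Cd44* rose under every alternative run except the threshold of 0.00046, at which 0 member genes and 0 member probe sets rose and their differences of 2.41, 0.87, 1.42, 0.80 and 0.78 no longer passed. With the replicate block, which reads the pairing of arrays, 1 member gene and 3 member probe sets fell in place of 0, and *Itgae* passed at a log2 difference of -1.53 (adjusted p = 0.0017). The block changed the call of no other member gene. With array weights 1 gene and 2 probe sets fell, and *Itgae* passed at -1.79 (adjusted p = 0.0325). Over all alternatives that kept the 6 arrays, its adjusted p was 0.0017 to 0.143. The shift of *Itga4* against *Itgb7* was 0.071 with the mean of all probe sets, by which *Itga4* differed by 0.87 and *Itgb7* by 0.80. Why the *Itga4* probe sets differed in size of response was not tested.

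When each array was left out in turn, 5 genes rose and 0 fell each time, and 7 to 9 probe sets rose. The log2 difference ranged from 2.17 to 2.77 for *Itgax*, 0.74 to 0.97 for *Itgb2*, 1.23 to 1.53 for *Itga4*, 0.78 to 0.81 for *Itgb7*, 0.70 to 0.81 for *Cd44*, and -1.91 to -1.07 for *Itgae* (adjusted p = 0.0501 to 0.200). It changed sign for *Icam1*, at -0.094 to 0.17 (-0.014 without the third evGFP and -0.094 without the second GFP-KLF2 array), and for *Itgam*, at -0.047 (without the first GFP-KLF2 array) to 0.51. In the pathway lists, rises then numbered 1 to 2 (from 3) for inside-out activation, 0 to 2 (from 1) for other integrin subunits, 2 to 3 (from 4) for the TGF-beta list, 0 to 1 (from 1) for CD44 partners, 2 to 3 (from 3) for restraint and 4 to 5 (from 5) for downstream signals, and falls 0 to 2 (from 2) for ligands and 0 to 2 (from 1) for restraint. Removing dim probe sets (mean log2 under 6) left *Itgam* and *Vcam1* without a value. Of these, *Itgam* was under the lower quartile of the arrays in 5 of 6, so a small change in it could be missed.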
